A study of Homo sapiens with 6 samples.

Results

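In the human lung adenocarcinoma cell line A549, 171 of the 4546 genes in the deposited comparison had 0 reads in all 3 DMSO libraries and reads only after mitoxantrone. These genes are described here. They were chosen by that rule alone, after 48 loci named only by a genomic clone had been left out, and make up 3.76% of the listed genes. The control cells received DMSO, the solvent, at a dilution of 1 in 1000, and the other cells 50 nM mitoxantrone for 48 hours. Mitoxantrone is an anthracenedione that poisons DNA topoisomerase II. The series title places the experiment in work on immunogenic senescence, and each group had 3 RNA sequencing libraries of the same line. The labels do not say that the 3 libraries of a group came from separate cultures.

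Many genes of a cancer cell line are held at or near 0 transcripts because they belong to other tissues. Receptors and channels of nerve cells, envelope proteins of skin and surface receptors of blood cells are examples, each switched on by the transcription factors of its own lineage. In RNA from a whole culture, few cells with much of a transcript and many cells with little of it cannot be told apart.

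The choice used the DMSO reads of this same contrast. That the 171 genes were higher after mitoxantrone is therefore how they were found, and no test of it is given. All 171 were listed by the authors as higher, as were 58.9% of all listed genes. The deposited table holds only genes that passed the authors' threshold, so a gene with 0 reads in DMSO and fewer reads after mitoxantrone is not listed, and nothing can be said of it here.

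The name "silent" goes further than the reads do. The DMSO libraries held 21781220, 20380674 and 21607331 reads and the mitoxantrone libraries 16681380, 17491982 and 19352443. A count of 0 of the 63769225 DMSO reads allows up to 3 reads, which is a normalized read count (reads divided by the library's size factor) of 0.882 as the mean of the group. Every fold given here divides the mean after mitoxantrone by that floor. It is a lower bound as to the DMSO reads only, and the counting error of the mitoxantrone reads is not in it. Intervals and floors cover counting error only, since the libraries were amplified by PCR with no molecular identifiers named.

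The transcripts of all 171 genes together were a very small part of the RNA. They took 692, 775 and 808 reads in mitoxantrone libraries 1, 2 and 3, which is 2275 reads or 0.00425% of the reads of the group. Divided by size factor these sums were 837, 875 and 824, so no library stood apart. Of the 171 genes, 166, 168 and 165 had a read in libraries 1, 2 and 3, and the highest of the 3 values lay in library 1 for 55 genes, in library 2 for 55 and in library 3 for 61.

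Reads per gene summed over the mitoxantrone libraries ran from 8 to 73, with a median of 11. At the low end, 27 genes had exactly 8 reads and 75 had at most 10. At the high end, 19 had at least 20 and 6 had at least 30. In 157 genes all 3 mitoxantrone libraries had a read and so lay above every DMSO library, and 14 genes had reads in 2 libraries. Among all listed genes, 57.5% had every mitoxantrone library above every DMSO library. Since the rule set all DMSO values to 0, nothing is read from that difference.

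**Figure D1:**
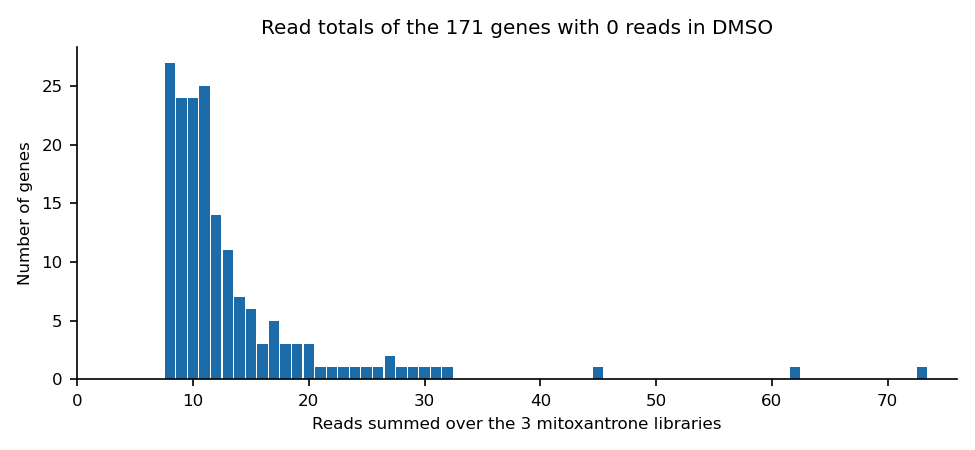
Number of genes (vertical axis) at each total of reads over the 3 mitoxantrone libraries (horizontal axis), for the 171 genes with 0 reads in DMSO. The pile begins at 8 reads, has its median at 11 and thins out beyond 20, and 3 genes stand to the right of 40 reads.

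The mean normalized count after mitoxantrone ran from 2.88 to 27.2 with a median of 4.07. Against the floor, the lower bound of the fold ran from 3.27 to 30.8, with a median of 4.61. It was at least 4-fold in 119 genes and at least 10-fold in 12. Over all listed genes, 25.6% had a mean after mitoxantrone at least 4 times DMSO with the same floor, and here too the rule used the contrast. In the authors' deposited table the log2 fold changes of the 171 genes ran from 1.43 to 4.34 (median 1.86), with adjusted p from 1.31e-12 to 0.0484. These are fitted values against a group at 0 and are no bounds.

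Per length, the genes stayed low. The mean FPKM (fragments scaled to transcript length and library total) had a median of 0.0515 and a range of 0.0111 to 1.09. It reached 0.1 in 33 genes and 1 in a single gene, HIST1H3G. The other 2506 genes listed higher, clone-named loci included, had a median of 1.09.

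The spread between libraries was somewhat above that of counting alone. The variance of a gene's reads over the 3 libraries around the values its size factors predict was divided by those values. Over the 171 genes this ratio had a median of 1.08 and a mean of 1.42. Counting error alone gives a mean of 1 and a median below 1. In 50 genes the highest library was at most 2 times the lowest, and in 39 genes with no library at 0 it was over 5 times. Single genes near 10 reads are therefore given as reads per library.

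GNGT2 had the most reads. GNGT2 (ENSG00000167083) encodes the gamma subunit of the cone transducin, the G protein that passes the signal of light from opsin to the phosphodiesterase in cone photoreceptors. It had 24, 23 and 26 reads in mitoxantrone libraries 1, 2 and 3, a total of 73 with a 95% exact Poisson interval of 57.2 to 91.8. The 3 libraries lay close together, at a mean normalized count of 27.2 ± 1.63 (SD, n = 3), which is 30.8 times the DMSO floor. Its FPKM was 0.809 ± 0.0384 (SD, n = 3). In the deposited coordinates, whose build is not given in the sources used here, GNGT2 lies on chromosome 17 from 47280153 to 47287936 on the minus strand. By identifier, 7.76% of its exon bases in GENCODE 29 are shared with ABI3, which is not listed.

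RELN (ENSG00000189056), the gene of reelin, a large secreted glycoprotein that guides the migration of neurons, came second. Its 22, 21 and 19 reads gave a mean normalized count of 23.2 ± 3.64 (SD, n = 3), 26.4 times the DMSO floor. It lies on chromosome 7 from 103112231 to 103629963 on the minus strand, and no exon base is shared with another gene. Its transcript is long, so its FPKM was 0.0923 ± 0.0135 (SD, n = 3), well under that of GNGT2.

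MUC19 (ENSG00000205592), which encodes a gel-forming mucin of salivary glands and airway, was the third, with 12, 13 and 20 reads. Library 3 was the highest, and the mean normalized count was 16.5 ± 3.35 (SD, n = 3), 18.8 times the DMSO floor. It lies on chromosome 12 from 40787197 to 40964632. These were the 3 genes with more than 40 reads, and the fourth, ATP8A2, had a mean normalized count of 12.2.

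**Figure D2:**
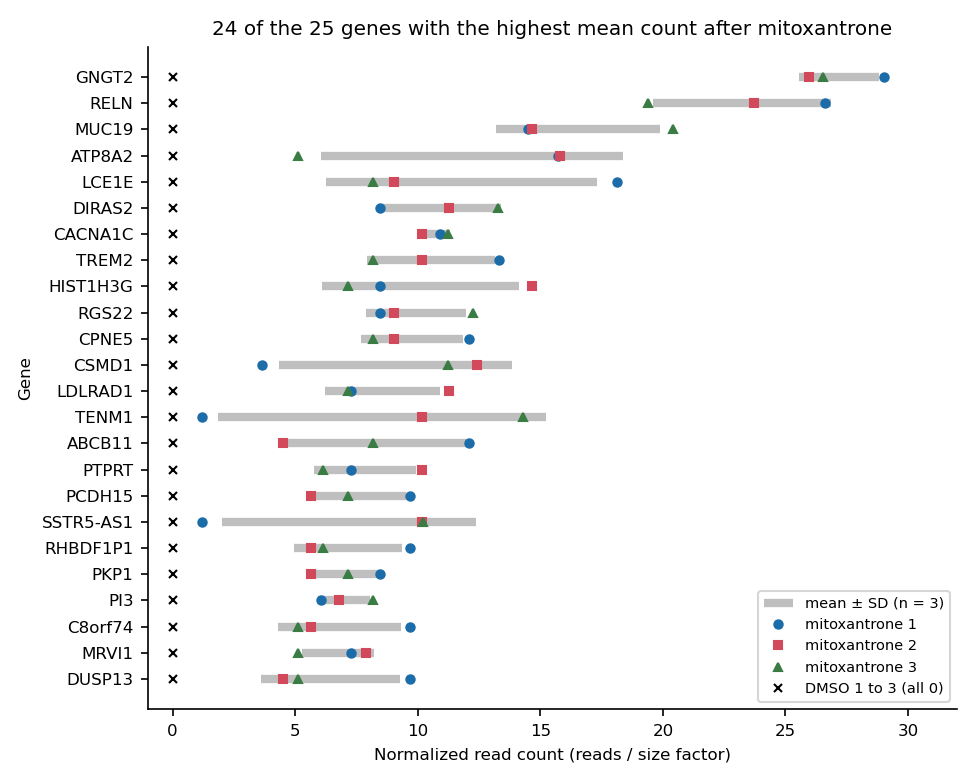
Normalized read counts (horizontal axis, reads divided by size factor) of 24 of the 25 genes with the highest mean after mitoxantrone (vertical axis), with 1 symbol for each library and a grey bar for mean ± SD, n = 3. All DMSO values are at 0. GNGT2, RELN and MUC19 lie to the right of the others, and in ATP8A2, CSMD1, TENM1 and SSTR5-AS1 1 library lies far to the left of the other 2.

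The promoters of 3 genes are shown as RefSeq gives them on GRCh38.p14, each from 250 bases before the gene's start to 50 after it. RELN is shown as the second most read gene, and LCE1E and LCE3E because they are 2 late cornified envelope genes of 1 cluster on chromosome 1. In RELN the capitals mark every CG, and in LCE1E and LCE3E they mark GATAAAA, a motif picked after the sequences had been seen.
RELN, chr7:103989609-103989908, minus strand: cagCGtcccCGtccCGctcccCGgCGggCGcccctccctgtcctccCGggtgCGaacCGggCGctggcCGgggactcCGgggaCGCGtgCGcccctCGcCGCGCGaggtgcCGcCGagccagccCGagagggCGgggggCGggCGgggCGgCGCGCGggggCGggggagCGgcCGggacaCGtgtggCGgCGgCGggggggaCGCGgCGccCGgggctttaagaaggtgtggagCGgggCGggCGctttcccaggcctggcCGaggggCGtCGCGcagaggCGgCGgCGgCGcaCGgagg
LCE1E, chr1:152786007-152786306, plus strand: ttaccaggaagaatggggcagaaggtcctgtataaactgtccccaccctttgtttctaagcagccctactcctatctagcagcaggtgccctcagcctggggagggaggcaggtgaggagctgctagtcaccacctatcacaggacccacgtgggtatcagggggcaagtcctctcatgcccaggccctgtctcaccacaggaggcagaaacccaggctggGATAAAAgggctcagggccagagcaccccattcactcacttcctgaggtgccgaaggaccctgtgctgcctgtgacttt
LCE3E, chr1:152566731-152567030, minus strand: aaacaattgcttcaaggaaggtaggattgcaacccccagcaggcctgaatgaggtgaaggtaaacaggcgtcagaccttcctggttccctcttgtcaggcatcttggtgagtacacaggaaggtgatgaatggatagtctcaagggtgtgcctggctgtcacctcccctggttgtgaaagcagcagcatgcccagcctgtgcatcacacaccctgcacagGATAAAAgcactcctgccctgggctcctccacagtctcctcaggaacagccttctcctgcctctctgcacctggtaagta

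The 3 windows are unlike in base composition. That of RELN holds 52 CG at 83.3% GC, with a CpG ratio (observed over expected from its C and G) of 1.03. Those of LCE1E and LCE3E hold 2 and 1 CG, with ratios of 0.0794 and 0.0454. Over the 35116 promoters in the RefSeq table the median was 14 CG and a ratio of 0.579. GATAAAA begins 29 bases before the start of LCE1E and 30 before that of LCE3E, and 3.29% of all promoters hold it on either strand. LCE1E also has TATAAA, 220 bases before its start, as 11.5% of all promoters do on either strand. LCE1E further has a match to the p53 decamer, as 6.63% of all promoters do on either strand, and RELN and LCE3E have none. TGANTCA, the AP-1 motif, is in none of the 3 windows and in 7.71% of all promoters. The matches are letters only. The table matched 109 of the 171 genes (63.7%), under the 80% needed, so no share over the set is given.

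Grouped by the tissue or role each is known for, 130 genes fell into 8 groups. Another 23 had a role outside them or none that is sure, and 18 were non-coding RNAs, pseudogenes or not matched. The groups were drawn up after the genes were known, so their sizes are a description. The plot of FPKM by group shows all 10 side by side, and no group stood clear of the rest.

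**Figure D3:**
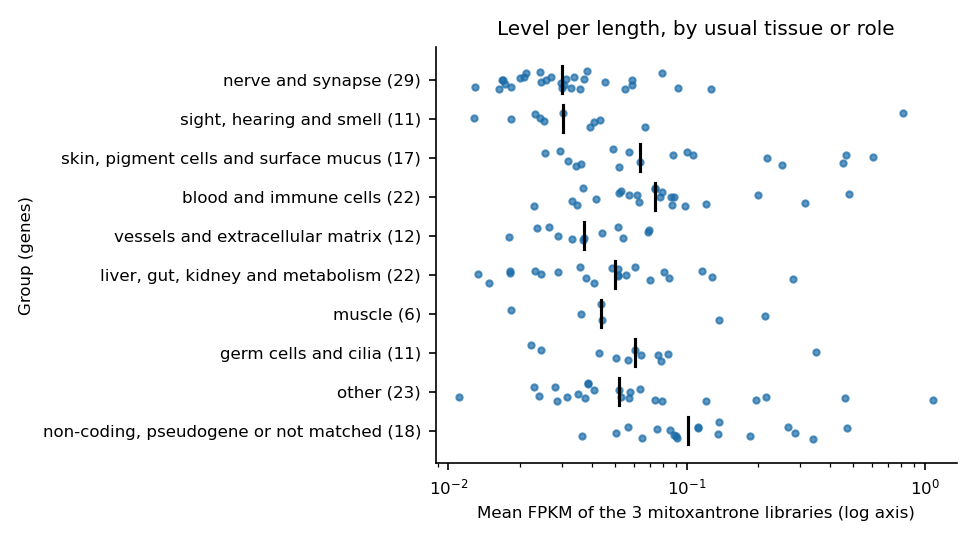
Mean FPKM over the 3 mitoxantrone libraries (horizontal log axis) of each of the 171 genes, in rows by usual tissue or role, with the number of genes in brackets and a black bar at the median. Most points lie below 0.1, and the highest are HIST1H3G at 1.09 and GNGT2 at 0.809.

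The largest group, 29 genes, belongs to nerve cells and synapses, with 8 to 62 reads per gene. After RELN came ATP8A2, a phospholipid flippase of neurons, with 13, 14 and 5 reads. DIRAS2, a small GTPase of the Ras family found in brain, had 7, 10 and 13 reads, and CACNA1C, the pore subunit of an L-type calcium channel, had 9, 9 and 11. CACNA1C was the steadiest of the well-read genes, at a mean normalized count of 10.8 ± 0.543 (SD, n = 3), 12.2 times the DMSO floor. Large surface proteins of neurons followed. CSMD1 had 3, 11 and 11 reads, the teneurin TENM1 had 1, 9 and 14, and the receptor phosphatase PTPRT had 6, 9 and 6. In TENM1 library 1 was low, and its mean normalized count of 8.55 became 12.2 without that library and 5.68 without library 3.

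Genes of the glutamate synapse were read at a lower level. GRIK3, a kainate receptor subunit, had 5, 2 and 7 reads, and GRIN2A, an NMDA receptor subunit, had 4, 2 and 6. CBLN1, a secreted organizer of cerebellar synapses, had 4, 2 and 5. All 3 libraries held reads of each of these genes, between 2 and 7 in each. Among transporters, SLC1A2, the main glutamate carrier of astrocytes, had 5, 5 and 3 reads. SLC17A8, a vesicular glutamate carrier, had 5, 4 and 1, and SLC6A5, a glycine carrier, had 3, 5 and 1. The channel TRPM3 had 3, 4 and 7 reads, and RAB3C, a GTPase of secretory vesicles, had 1, 2 and 6. None of the 24 neuronal markers chosen to check for that cell type was among the 171 genes. The 171 are 3.76% of all listed genes, so nothing is read from that 0. Of those 24, 6 were listed higher (GAD1, MAP2, NEFL, RBFOX3, SYN1 and TUBB3), SYP was lower and 17 were not listed. The summed normalized count of the 7 listed was 927 to 985 in DMSO and 2647 to 2889 after mitoxantrone, and its part in the result was not tested. Sums of this kind hold only listed genes, which passed the authors' threshold, and so do not describe a whole list.

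Genes of sight, hearing and smell numbered 11. GNGT2 led them, and PCDH15, a large adhesion protein of photoreceptors and of the hair bundles of the inner ear, had 8, 5 and 7 reads. CNGA3, a subunit of the cone photoreceptor channel, had 1, 8 and 7 reads. ANO2, a chloride channel of olfactory neurons, had 2, 7 and 5, and EGFLAM, a matrix protein of the photoreceptor synapse, had 5, 3 and 4. OTOG, TMC1, MYO3B, SAG and GRK1 had between 8 and 13 reads in all. In the annotation terms deposited with the table, 7 of the 171 genes carry visual perception, among them CNGA3, COL2A1, GRK1, MYO3B, PCDH15 and SAG. The term is also carried by 19 of the other genes listed higher. Terms for process were given for 73.1% of the 171 genes, under the 80% needed, so the shares are not compared.

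Skin, pigment cells and surface mucus gave 17 genes. Of the pair whose promoters are printed, LCE1E had 15, 8 and 8 reads and LCE3E had 6, 6 and 3, and both encode proteins that harden the outer layer of the epidermis. PKP1, a plaque protein of desmosomes, had 7, 5 and 7 reads. PI3, the elastase inhibitor elafin, had 5, 6 and 8, and its short transcript made its FPKM 0.610 ± 0.0994 (SD, n = 3), the third highest of the 171. KRT32, a keratin of hair, had 3, 3 and 4 reads and KRT13, a keratin of moist stratified epithelium, had 4, 1 and 5. SOX10, a transcription factor of pigment cells and other neural crest derivatives, had 7, 1 and 2. MRGPRX3, a receptor of sensory neurons and skin, had 2, 5 and 1.

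Relatives of the skin genes were mostly listed higher, as were 58.9% of all listed genes. The 171 genes stand among 2677 listed higher, and no share of these relatives was tested. By symbol, 19 keratins and keratin-associated genes were listed higher and 3 lower, and 15 genes of the cornified envelope were listed higher and 0 lower, and 2 of the 15 are LCE1E and LCE3E. Their neighbours LCE1F, with mean normalized counts of 0.286 in DMSO and 7.10 after mitoxantrone, and LCE3D, with 1.74 and 28.8, were both listed higher. Of the 26 keratinocyte markers, 8 were listed, all higher, and KRT13 was the 1 among the 171 genes. The summed count of the 8 listed was 37.1 to 44.6 in DMSO and 834 to 1080 after mitoxantrone.

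Blood and immune cells gave 22 genes, all with reads in the 3 libraries. TREM2, a lipid-sensing receptor of macrophages and microglia, had 11, 9 and 8 reads. Its mean normalized count was 10.5 ± 2.59 (SD, n = 3), 12 times the DMSO floor. TREM2 was the only gene of the group with more than 17 reads. WDFY4, a factor of antigen cross-presentation in dendritic cells, had 3, 6 and 8, and TLR4, the receptor for lipopolysaccharide, had 5, 7 and 4. CD34, a surface marker of blood stem cells and endothelium, had 6, 2 and 5 reads. PPBP, a platelet chemokine, had 2, 7 and 3, and PRSS57, a serine protease of neutrophils, had 2, 2 and 8. CD79B, a chain of the B cell receptor complex, had 2, 2 and 5. HLA-DOA, P2RY8 and IGJ, with 8 reads each, are among the least read of all.

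Defining markers of leukocytes were largely not listed. Of the 25 markers, 5 were listed, all higher: CD79B, CD14, CD8A, ITGAX and SPI1. PTPRC, CD3D and MS4A1 were not listed, which does not mean that they had 0 reads. The summed count of the 5 was 41.8 to 57.8 in DMSO and 255 to 269 after mitoxantrone. Of 17 markers of erythroid cells and platelets, PPBP was listed higher and ITGA2B lower. These 2 had a summed count of 54.0 to 61.3 in DMSO and 27.5 to 31.5 after mitoxantrone. The part of either list in the result was not tested.

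Liver, gut, kidney and metabolism gave 22 genes with 8 to 22 reads. ABCB11, the bile salt export pump of hepatocytes, led with 10, 4 and 8 reads. NPC1L1, which takes up cholesterol in the gut, had 4, 9 and 4, and PRLR, the prolactin receptor, had 2, 5 and 11. FBP1, an enzyme of gluconeogenesis, had 7, 3 and 1. SLC6A19, a neutral amino acid carrier of kidney and gut, had 1, 4 and 6 reads. In this group 18 of 22 genes had reads in all 3 libraries, and ALDH1A2, PKHD1, PNLIPRP2 and TUSC5 each had 1 library at 0. None of the 18 hepatocyte and intestinal markers was among the 171 genes, which are 3.76% of all listed genes, so nothing is read from that 0. Of these markers, 3 were listed higher, 2 lower and 13 not at all. The summed count of the 5 listed was 1001 to 1107 in DMSO and 587 to 701 after mitoxantrone.

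Vessels and extracellular matrix gave 12 genes, none above 17 reads. COL14A1, a collagen that binds fibrils, had 5, 5 and 7 reads, COL2A1, the main collagen of cartilage, had 3, 2 and 7, and COL6A5 had 3, 5 and 1. TEK, the angiopoietin receptor of endothelium, had 5, 4 and 2, and CD300LG, a surface protein of endothelium, had 5, 4 and 0. TEK was 1 of 6 listed among the 17 endothelial and mesenchymal markers, of which 5 were higher and COL1A1 was lower. The summed count of the 6 listed was 775 to 811 in DMSO and 1611 to 1874 after mitoxantrone, of which TEK gave a mean of 4.20 after mitoxantrone.

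Muscle gave 6 genes. MRVI1, a target of cGMP signalling in smooth muscle, had 6, 7 and 5 reads, and DUSP13, a phosphatase of skeletal muscle and testis, had 8, 4 and 5. MYL2, the regulatory light chain of heart and slow muscle, had 9, 4 and 2 reads, and its mean normalized count of 5.81 was 3.28 without library 1. It was the 1 listed gene of the 24 muscle markers, and MYOD1, MYOG, DES and CKM were not listed.

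Germ cells and cilia gave 11 genes with 8 to 27 reads. RGS22, a regulator of G protein signalling in testis, led with 7, 8 and 12 reads, a mean normalized count of 9.91 ± 2.04 (SD, n = 3). The sperm surface protease ADAM21 had 3, 4 and 5, and SLC22A14 had 3, 5 and 3. DNAI2, an intermediate chain of axonemal dynein, had 3, 2 and 5. SYCE3, of the synaptonemal complex, and TDRD5 and MOV10L1, of the piRNA pathway, had 9, 9 and 8 reads in all. None of 30 germ cell and cancer-testis markers was among the 171 genes, and the 1 that was listed, DMC1, was lower. With 0 of these markers listed higher, none could be among the 171.

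Outside these groups HIST1H3G, a replication-dependent histone H3 gene of a single short exon, had 7, 13 and 7 reads. Its length of 467 bases made its FPKM, 1.09 ± 0.440 (SD, n = 3), the highest of all. The histone H3 genes are nearly identical in their coding parts, so the split of reads among them is uncertain. CPNE5, a calcium-binding copine, had 10, 8 and 8 reads, LDLRAD1 had 6, 10 and 7, and C8orf74 had 8, 5 and 5. The orphan receptor GPR78 had 6, 3 and 5. LHX3, a transcription factor of the pituitary and motor neurons, had 3, 3 and 5, and LRRC55, an auxiliary subunit of a potassium channel, had 5, 3 and 3.

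By gene family, matched on symbols alone, ion channels were the most numerous with 12 genes, among 66 listed higher and 13 lower. That pattern also takes in associated proteins such as CLCA2 and GRID2IP. For scale, all 171 genes stand among 2677 listed higher, and 1869 were listed lower. Family counts also depend on how many symbols a pattern takes in, and no share was tested. Solute carriers gave 6 genes, the pseudogene SLC6A21P included, among 63 higher and 22 lower. Matrix proteins and metalloproteases gave 5 (COL14A1, COL2A1, COL6A5, ADAM21 and the tenascin pseudogene TNXA), among 40 higher and 3 lower. The symbols of interleukins, chemokines and the TNF superfamily gave 0 genes, with 19 listed higher and 12 lower, but they do not match PPBP, which is a chemokine under another name. Zinc finger genes gave 1, ZFP41, with 14 of the family listed higher and 113 lower. All exon bases of that ZFP41 entry are shared with other entries, among them another of the same name.

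No gene of the 4 pathway lists was among the 171, although the list of cytokines and chemokines does not hold PPBP. Since the 171 are 3.76% of all listed genes, nothing is read from 0 in a short list. Of 54 p53 targets, 30 were listed higher and 5 lower, a list that holds the best known responders to DNA damage. Of 51 interferon and interferon-stimulated genes, 15 were higher and 1 lower. Of 72 cytokines and chemokines 5 were higher and 8 lower, and of 39 genes of the TNF and TNF receptor superfamilies 8 were higher and 4 lower. Of 18 markers of lung epithelium, KRT8, KRT19 and CDH1 were listed higher and MUC5AC lower, with 0 among the 171. The summed count of the 4 listed was 59489 to 68295 in DMSO and 139841 to 153840 after mitoxantrone.

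By annotation, 149 of the 167 genes matched to GENCODE 29 by identifier were protein-coding (89.2%), 11 were pseudogenes and 7 were non-coding RNAs. Among the other genes listed higher, with clone-named loci left out there too, 91.2% of those matched were protein-coding. With clone-named loci kept in both, the shares were 70.9% and 78.4%.

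Among the non-coding genes, SSTR5-AS1 had 1, 9 and 10 reads. It overlaps SSTR5, a somatostatin receptor on the opposite strand, whose mean normalized count was 1.19 ± 1.03 in DMSO and 20.5 ± 3.18 after mitoxantrone (SD, n = 3). In GENCODE 29, SSTR5-AS1 shares no exon base with SSTR5, but 21.9% of its exon bases are shared with the clone-named AC009041.3. No source states that reads were counted by strand or how shared bases were assigned, so reads there are uncertain. LINC01118 had 11, 2 and 3 reads and overlaps LINC01119, and its mean of 6.21 became 2.66 without library 1. LINC00519 had 0, 5 and 5.

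Of the 11 pseudogenes, 9 are annotated as copies of another gene and share sequence with it, so their reads are uncertain. RHBDF1P1 had 8, 5 and 6 reads, and its parent RHBDF1 rose in the table from 557 to 1138. TNXA had 6, 1 and 2, beside TNXB at 30.4 and 110. SLC6A21P had 7, 0 and 2, and its mean normalized count fell to 1.02 without library 1. KRT18P55 had 4, 4 and 2 reads, CYP2B7P had 3, 4 and 4, and BMPR1APS1 had 2, 3 and 7. Their parents KRT18, CYP2B6 and BMPR1A are not listed. BTNL10, annotated as a pseudogene with no parent copy, had 1, 7 and 9 reads.

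By locus, the genes were spread over every nuclear chromosome except 18. Chromosomes 1 and 17 held 16 each, chromosome 8 held 14 and chromosome 9 held 13. Chromosome 8 held 8.19% of the 171 genes and 3.43% of the other genes listed higher, clone-named loci included, and chromosome 19 held 3.51% and 7.74%. 

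The genes often covered long stretches of the genome. The median span from first to last base was 41798 bases, against 25613.5 in the other genes listed higher and 31539 in those listed lower, with clone-named loci left out of all 3 sets. A span over 200000 bases was found in 32 of the 171 (18.7%), in 174 of the 2102 others listed higher (8.28%) and in 106 of the 1675 lower (6.33%). Over 500000 bases it was 16 genes (9.36%) and 46 of the others listed higher (2.19%). The longest were CSMD1 at 2059620 bases, PCDH15 at 1825172 and CTNNA3 at 1783652. The nerve and synapse group had a median span of 270203 bases, the longest of the groups.

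The difference was smaller beside genes with few reads. Among protein-coding genes with a mean normalized count under 15 over all 6 libraries, DMSO included, 21.5% of the 149 chosen here, which all meet that limit, and 14.9% of 457 others listed higher spanned over 200000 bases. Among lower genes of that kind it was 6 of 75. Spliced length differed little, with a median of 4134 bases in the 171 and 4323 in the other genes listed higher, clone-named loci left out. Among the protein-coding genes of these 2 sets, at any read count, it was 4637 and 4604. The span threshold was chosen after the values had been seen, and no test was made.

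**Figure D4:**
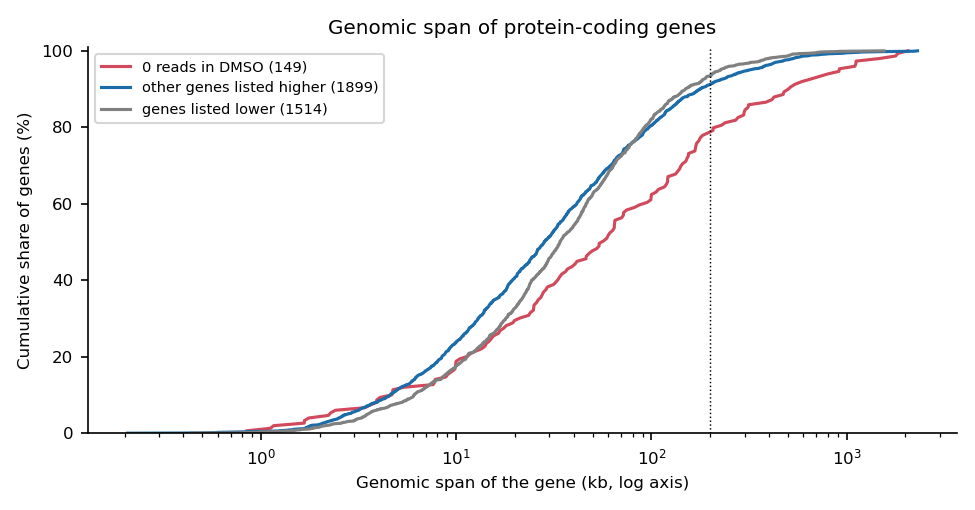
Cumulative share of protein-coding genes (vertical axis, percent) by genomic span (horizontal log axis, kb), for the genes with 0 reads in DMSO, the other genes listed higher and the genes listed lower, with the number of genes in brackets and clone-named loci kept in the last 2 sets. The red curve lies to the right of the others over most of its length, and at the dotted line at 200000 bases 21.5% of its genes remain to the right, against 8.79% and 6.61%.

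Most of the genes did not lie beside another listed gene. Overlap with one was found for 11 (6.43%), against 12.3% of the other genes listed higher, clone-named loci left out. Within 10000 bases the figures were 24 genes (14.0%) and 29.4%, and within 50000 bases 57 (33.3%) and 50.6%. With clone-named loci kept in both, overlap was 7.76% and 13.8%. Of the 24 with a listed gene within 10000 bases, 20 had only genes listed higher there and 3 only genes listed lower. Among all listed genes 58.9% were higher, and the neighbours of other genes were not counted in this way. AQP9 and ALDH1A2 count each other, and nothing is read from these counts.

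Some neighbours were far better read than the gene itself. CACNA1C overlaps DCP1B, an mRNA decapping factor on the opposite strand, with mean normalized counts of 153 in DMSO and 365 after mitoxantrone. In GENCODE 29, CACNA1C shares exon bases with other genes (6.28%) but not with DCP1B. GPR141 had 1, 5 and 5 reads and lies across EPDR1, which rose in the table from 1504 to 3229 on the same strand. ZFP41 had 2, 4 and 2 reads and shares all its annotated exon bases, with another entry of the same name and with GLI4, at 366 and 744. Its 0 reads in DMSO therefore cannot be taken as absence of ZFP41 transcripts. Of the exon bases of GPR141, 2.64% are shared with EPDR1, and how reads in shared bases were assigned is not given in the sources used here. BMPR1APS1 overlaps LAMA2, at 5.77 and 17.7, with no exon base shared, and EGFLAM overlaps a clone-named antisense locus. AQP9, a glycerol channel with 2, 3 and 4 reads, and ALDH1A2, an enzyme of retinoic acid synthesis with 4, 4 and 0, overlap each other and are both among the 171.

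The 3 genes whose near neighbours were all listed lower show the opposite direction side by side. RGS22 lies 2092 bases from FBXO43, an inhibitor of the anaphase-promoting complex, which was at 185 in DMSO and 3.29 after mitoxantrone. ABCB11 lies 9567 bases from SPC25, a kinetochore subunit, at 158 and 10.7. SYCE3 lies 90 bases from KLHDC7B, at 31.0 and 0.403.

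In all, 47 of the 167 genes matched (28.1%) share at least 1 exon base with another GENCODE gene, and ZFP41 was the 1 with at least 50% shared.

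The rule has a sharp edge at 0 reads. Just inside it, at the fewest reads that were listed, IGJ, HLA-DOA, P2RY8, NBPF6 and C20orf141 had 8 reads each after mitoxantrone. Just outside it, with 1 read over the DMSO libraries, 87 genes were listed higher. Of those, CASP1, the caspase that matures interleukin-1, had 26, 29 and 22 reads after mitoxantrone, VNN1 had 9, 11 and 19, RGAG1 had 7, 14 and 18, PRUNE2 had 12, 8 and 14, and the sodium channel SCN2A had 10, 10 and 14. CASP1 was the 1 of these 87 genes above the 73 reads of GNGT2. At 2 and 3 DMSO reads 48 and 46 genes were listed higher. The lowest total that was listed grew with the DMSO reads, from 8 at 0 reads to 10, 12 and 15 at 1, 2 and 3.

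**Figure D5:**
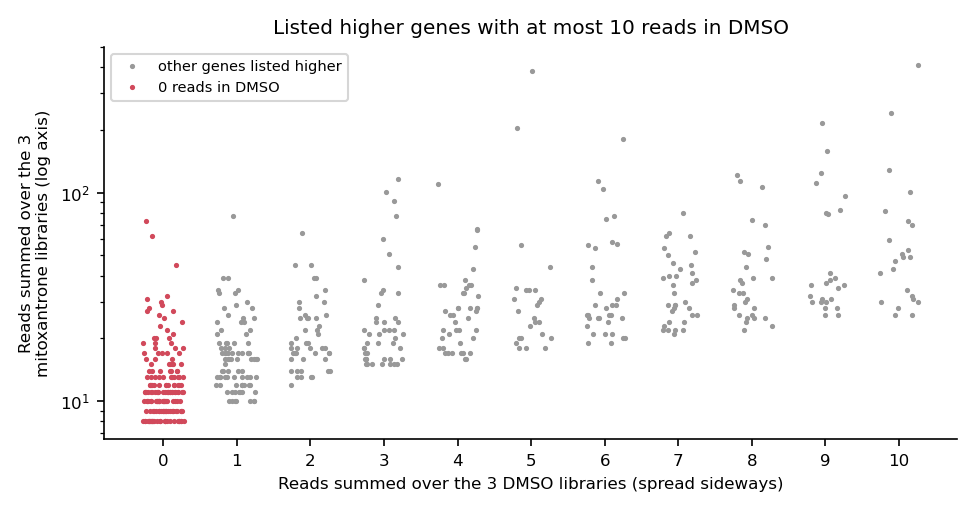
Reads over the 3 mitoxantrone libraries (vertical log axis) against reads over the 3 DMSO libraries (horizontal axis, points spread sideways), for genes listed higher with at most 10 DMSO reads. The 171 genes at 0 form the left end of a series without a gap, and its lower edge climbs from 8 reads at 0 to 26 at 10.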

How the data were processed

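RNA sequencing libraries of A549 cells numbered 6, with 3 per group by the sample titles. Per the labels' protocols, libraries were randomly primed and paired-end; poly(A) selection or rRNA removal was used, without saying which, and strand is not stated. Tools named in the submitters' processing notes are HISAT2 2.0.1, cutadapt 1.9.1, SAMtools 0.1.19, HTSeq 0.6.1, Cufflinks 2.2.1 and DESeq2. The build of the genome is not given in the sources used here.

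The authors' deposited table gives raw read counts and FPKM per library and, per the file headers, a mean normalized count (a coverage-like signal), a log2 fold change, a score (that change over its standard error) and p-values, raw and adjusted. The authors' fold changes and p-values are quoted as ranges only. It lists 4546 genes that passed the authors' threshold.

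A least squares fit recovered the size factors from counts and the authors' means (largest residual 4.8e-10), at 1.08 to 1.17 for DMSO and 0.827 to 0.980 for mitoxantrone. Library totals came from genes with FPKM of at least 20. FPKM was recomputed from reads, length and totals, since the deposited values have 2 decimals, and differed by at most 0.00502. The recovery of size factors and the search for neighbours were tested on simulated data. Python 3.11.15 with pandas 2.3.3 was used, and edgeR 4.0.16 in R 4.3.3 for TMM scaling only. Values are mean ± SD over 3 libraries. Library totals of 16681380 to 21781220 reads set the precision: 3 reads are the limit that a count of 0 allows. No spike-ins were used here, so levels are relative to other transcripts.

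The members and lists were chosen with earlier results of these data known. Named genes were the 25 with the highest mean count, up to 6 per family with at least 2 members, members of marker or pathway lists, 6 overlapping a listed gene, and 5 on each side of the rule's edge. Some genes of these kinds are not reported here. Other genes, role groups, the span threshold and parent genes were chosen after values were seen. Alternatives were other scalings, floors, read limits, windows and leaving out each library. Comparison sets without clone-named loci were added after seeing the data. GENCODE 29 was used by identifier for gene kind and shared exons only.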

Additional observations from a re-analysis of the deposited data

How the results depend on the processing

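No paired analysis was possible because the results come from no test. The number of genes was 258 with at most 1 DMSO read allowed, 352 with at most 3, and 6 with at least 30 mitoxantrone reads required, and 206 to 226 when 1 DMSO library was left out. With 1 mitoxantrone library left out, 160 to 163 genes had reads in every remaining library, the median count was 4.08 to 4.24 and the median lower bound of the fold 4.63 to 4.81. That bound was 3.84 with TMM scaling and 1.54 with a floor of 3 reads in each DMSO library, which by construction is higher. The protein-coding share was 70.9% with clone-named loci kept and 100% with at least 30 reads. The share overlapping a listed gene was 14.0% within 10000 bases, 33.3% within 50000 bases and 0% with at least 30 reads. The share spanning over 200000 bases was 33.3% with at least 30 reads, an alternative chosen after seeing the data. Limits of 30 reads leave 6 genes. Of 72 named genes, 2 moved by more than their SD with TMM scaling and 0 with library totals. Leaving out 1 library moved the mean count by over 1.5 times in 12 of the 72, most in SLC6A21P (1.02 to 5.25), SOX10 (1.58 to 5.25), LINC01118 (2.66 to 8.18) and TNXA (1.58 to 4.65), each lowest without library 1. The planned shares of promoters by CpG ratio were not run, since too few genes matched. Depth limits every single gene here: the exact Poisson interval of 8 reads is 3.45 to 15.8 and that of 11 reads 5.49 to 19.7, so most genes cannot be ranked against each other.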

Other observations

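The table also holds the mirror case, 16 genes with 0 reads in all mitoxantrone libraries and 11 to 36 reads in DMSO (median 12.5), clone-named loci left out. FGF21, a hormone of the fasting response, had 15, 11 and 10 reads in DMSO libraries 1, 2 and 3. The homeobox genes HMX3, with 12, 12 and 8, and MKX, with 12, 6 and 5, followed, and RPS10L had 16, 1 and 5. These genes were picked by the same kind of rule and are likewise given without a test.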
